A study of Mus musculus with 12 samples.

Results

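The genes described here encode the proteins of the cytosolic ribosome. They were taken from the deposited expression table as the protein-coding genes named for a large subunit protein (Rpl, Rplp) or a small subunit protein (Rps, Rpsa, Fau), with the S6 kinases, Rps19bp1 and names of pseudogenes left out. This gave 86 of the 54532 genes listed, 52 of the large and 34 of the small subunit, spread over 20 chromosomes. Groups TL, TV and NTV, each of 4 female ICR SCID mice, an immunodeficient strain, were compared, and the gastrocnemius (calf muscle) of each mouse gave 1 library. TL mice carried a subcutaneous tumour of HT1080 cells, a human fibrosarcoma line, and were gavaged with selpercatinib, a RET kinase inhibitor, at 30 mg/kg daily for 19 days. TV mice carried the same tumour and were given vehicle. NTV mice had no tumour and were given vehicle. A library is named by its group and the replicate number in its label. The tumour is a graft of 1 human line in a host without a full immune system, and no drug-treated group without a tumour was analysed here.

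A ribosome joins 4 ribosomal RNAs with one copy of most ribosomal proteins, so cells make these proteins in near-equal numbers. Their mRNAs are among the most abundant in most tissues and typically begin with a C followed by a run of pyrimidines, the terminal oligopyrimidine (TOP) motif, through which mTORC1 and the RNA-binding protein LARP1 control their translation. In skeletal muscle, ribosome number is one of the limits on protein synthesis, and muscle also makes Rpl3l, a paralogue that can take the place of Rpl3 in the ribosome. The levels below are mRNA levels and say nothing of how much of each mRNA was translated.

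The start sites show the motif in letters. RefSeq promoter sequences (build GRCm38.p6) held 66 of the 86 genes. A C followed by at least 4 more C or T within 10 bases of the annotated start was present in 41 of the 66 (62.1%), against 34.3% of the 26959 other genes with an entry. Within 2 bases of the start it was present in 34.8%, against 10.5%. A tract some bases away can also reflect an imprecise annotated start. The following lines give 15 bases before and 20 bases from the start site on, 5′ to 3′ on the coding strand, with the pyrimidine run in capitals. The first 4 genes begin exactly at such a run. Rpl4 and Rpl7l1 hold none near the annotated start, and Rpl3l, of whose 2 entries the upstream one is shown, holds a short one further in.
Fau: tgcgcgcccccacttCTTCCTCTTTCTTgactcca
Rps6: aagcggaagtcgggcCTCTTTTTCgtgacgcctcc
Rpl38: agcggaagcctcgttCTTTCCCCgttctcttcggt
Rplp2: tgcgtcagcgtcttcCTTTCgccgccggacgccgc
Rpl4: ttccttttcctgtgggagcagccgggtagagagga
Rpl7l1: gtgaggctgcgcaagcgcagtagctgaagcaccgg
Rpl3l: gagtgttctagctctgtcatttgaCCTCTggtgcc

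These windows lie at chr19:6057932-6057966 (plus strand, Fau), chr4:86857348-86857382 (minus strand, Rps6), chr11:114668565-114668599 (plus strand, Rpl38) and chr7:141447636-141447670 (plus strand, Rplp2). Those of Rpl4, Rpl7l1 and Rpl3l lie at chr9:64173372-64173406 (plus strand), chr17:46782637-46782671 (minus strand) and chr17:24727811-24727845 (plus strand). The motif CCGGAAG, searched on both strands of the 300 bases from 250 before to 50 after the start, was present in 39.4% of ribosomal protein promoters, 37.7% of those of 69 mitochondrial ribosomal proteins and 9.86% of those of all other genes. TATAAA, the core of the TATA box, was present in 7 of the 66 ribosomal protein promoters and in 15.7% of those of all other genes. Tested genes with the pyrimidine run within 10 bases (39) had a median log2 change of 0.70 in TV against NTV, and those without it (24) one of 0.72.

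Between 14939830 and 23580603 reads per library were assigned to genes. Levels are FPKM, which the authors scaled between libraries with size factors, and changes are log2 differences of FPKM + 0.5 ± SE from limma over all 12 libraries. A gene was tested when its mean FPKM was at least 0.5 and called when its adjusted p was under 0.05 (Benjamini-Hochberg over 12754 genes). Of the 86 genes, 81 passed that filter. Their levels spanned a wide range: 40 had a mean of at least 100 FPKM, 34 one between 10 and 100 and 7 one between 0.5 and 10. The 5 genes under the filter were Rpl10l, the testis paralogue of Rpl10, which had no read in any library, Rpl39l, Rpl36al, Rpl21 and Rpl29. In these bulk samples, fewer cells of a type and less RNA per cell cannot be told apart.

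Ribosomal protein mRNAs took a larger share of the library in tumour-bearing mice. They held 1.52, 2.24, 1.55 and 1.99% of assigned reads in TL 1, 4, 5 and 7, and 2.24, 1.87, 1.67 and 2.13% in TV 3, 4, 6 and 8. In NTV 2, 3, 5 and 6 they held 1.36, 1.41, 1.16 and 1.27%. Every TL and every TV library lay above every NTV library, and the TL and TV ranges overlapped. The means were 1.83 ± 0.35% in TL, 1.98 ± 0.255% in TV and 1.30 ± 0.11% in NTV (SD, n = 4 each).

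Reads of the mitochondrial genome, which also enter the total, took a larger share in NTV than in TV, opposite to the ribosomal protein share. They made up 10.1, 6.04, 13.9 and 6.55% in TL 1, 4, 5 and 7, between 5.08 and 7.70% in TV and between 11.6 and 13.5% in NTV. The TL libraries with the lower mitochondrial share, TL 4 and TL 7, were those with the higher ribosomal protein share. With mitochondrial reads left out of the total, the ribosomal protein share was 2.00 ± 0.316% in TL, 2.12 ± 0.258% in TV and 1.48 ± 0.12% in NTV. All TV and TL values then still lay above all NTV values, with a highest NTV value of 1.60%.

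**Figure D1:**
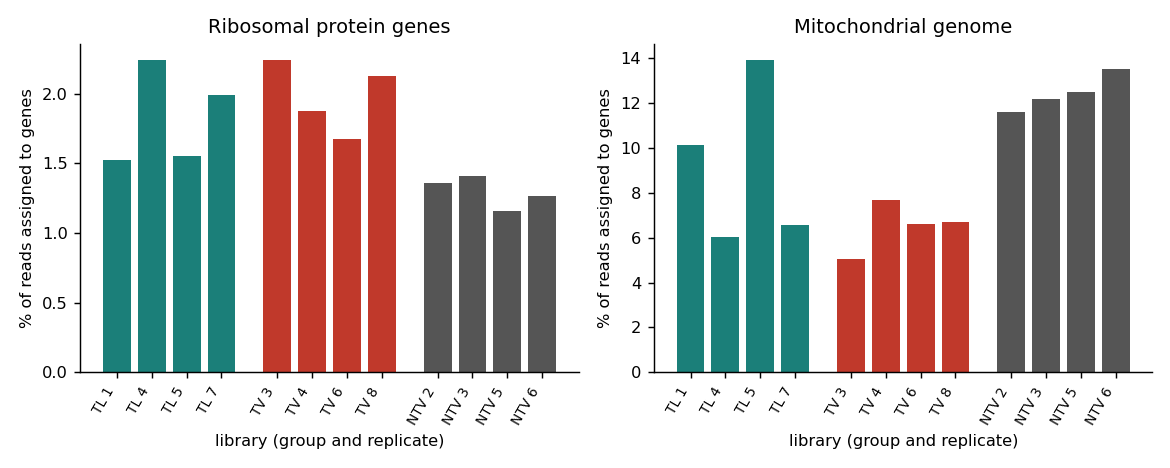
Percent of reads assigned to genes that fell on the 86 ribosomal protein genes (left) and on the mitochondrial genome (right), 1 bar per library, coloured by group. The ribosomal protein share is at most 1.41% in NTV and at least 1.52% in TL and TV, and TL 1 and TL 5 lie nearer to NTV than TL 4 and TL 7 do in both panels.

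The comparison of TV with NTV addressed the effect of the tumour. Ribosomal protein mRNAs rose across both subunits: limma called 61 of the 81 tested genes higher and 0 lower. Of all 12754 genes, 13.8% were called higher and 11.5% lower. The rises of the called genes ran from 0.37 to 1.91 on the log2 scale, with 10 of at least 1 (2-fold), 46 between 0.5 and 1 and 5 under 0.5. The median over the 81 genes was 0.71, beside 0.015 over all tested genes. It was 0.66 for the 47 large subunit genes (35 called) and 0.73 for the 34 small subunit genes (26 called).

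The 4 TV values lay above the 4 NTV values without overlap for 64 of the 81 genes, as they did for 14.4% of all tested genes. Other protein-coding genes with a mean of at least 50 FPKM had a median change of 0.065 and were called higher in 158 of 647 cases. Gene length was not closely tied to the change (Spearman rho of -0.12 across the 81 genes, which share libraries and are not independent). When each library was left out in turn, between 53 and 62 of the genes were called, and 53 were called with all libraries and in every such fit.

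**Figure D2:**
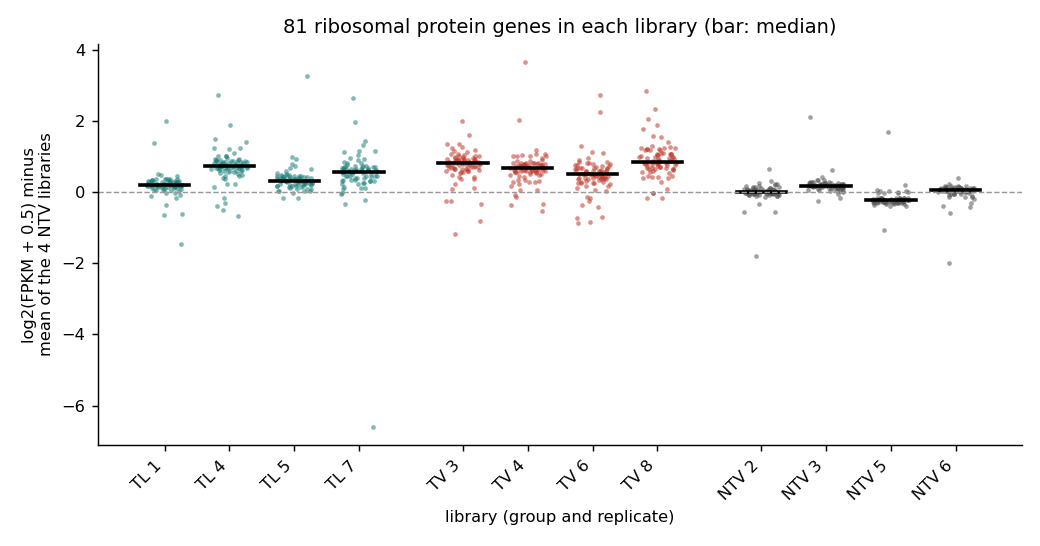
Each point is 1 of the 81 tested ribosomal protein genes in 1 library, as log2(FPKM + 0.5) minus the gene's mean over the 4 NTV libraries. Black bars are library medians. The medians are 0.19, 0.72, 0.32 and 0.57 in TL 1, 4, 5 and 7, between 0.49 and 0.85 in TV and between -0.23 and 0.18 in NTV. The lowest point is Rpl26 in TL 7.

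The most abundant genes show the pattern in single libraries. Rpl4, which reaches into the tunnel through which the new peptide leaves, had 360.1, 564, 373 and 476 FPKM in TL 1, 4, 5 and 7, 584, 586, 547 and 556 FPKM in TV 3, 4, 6 and 8, and 277, 330.5, 261 and 301 FPKM in NTV 2, 3, 5 and 6. All TV and TL values lay above the NTV values, and TL 1 and TL 5 were the lowest of the tumour-bearing mice. The TV rise was 0.96 ± 0.15 (adjusted p = 0.00172, limma). Rplp1, the most abundant of the genes (mean 894 FPKM), forms with Rplp2 and Rplp0 the stalk that recruits elongation factors. It had 795, 1091, 824 and 1118 FPKM in TL, 1151, 1070.1, 918 and 1048 FPKM in TV and 702, 767, 533 and 717 FPKM in NTV. No TV value overlapped an NTV value (0.63 ± 0.16, adjusted p = 0.0161). Rplp2 rose as well (108 ± 20.1 FPKM in TV and 66.0 ± 7.1 FPKM in NTV; 0.70 ± 0.17). Rps15 rose by 0.79 ± 0.16, and Rps3a1 had 537 ± 87.4 FPKM in TV and 395 ± 60.9 FPKM in NTV and was not called (adjusted p = 0.113).

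Of the 10 called rises of at least 1, 5 belonged to each subunit. Rps28, a small subunit protein near the mRNA exit, had 55.6, 42.4, 37.9 and 80.7 FPKM in TV and 24.9, 20.6, 18.4 and 22.4 FPKM in NTV (1.25 ± 0.22, adjusted p = 0.00295). Rpl38, whose loss alters translation of Hox mRNAs in the mouse, had 80.8, 65.1, 81.1 and 153 FPKM in TV and 34.0, 46.9, 32.4 and 35.2 FPKM in NTV (1.28 ± 0.27, adjusted p = 0.00612). In both, the highest TV value was that of TV 8, which was the highest of the 4 TV libraries for 52 of the 81 genes. Without TV 8 the change of Rpl38 was 1.03 and that of Rps28 was 1.04, both still called, and the median over the 81 genes was 0.65. Rps27 had the largest change of all (1.91 ± 0.38), and it shares its sequence with another gene, as described below.

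Fau, which encodes a ubiquitin-like protein fused to a small subunit protein, had 244, 241, 225 and 309 FPKM in TV and 139, 140.3, 109 and 143 FPKM in NTV (0.93 ± 0.15, adjusted p = 0.00217). Rps6, the protein phosphorylated by the S6 kinases downstream of mTORC1, had 219 ± 26.6 FPKM in TV and 160.0 ± 18.1 FPKM in NTV (0.45 ± 0.12, adjusted p = 0.0216). Its call ended without TV 3, NTV 2 or NTV 5 (adjusted p up to 0.0597). Rpsa, also known as a laminin receptor, rose by 0.73 ± 0.19 and the X-linked Rps4x by 0.83 ± 0.13.

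**Figure D3:**
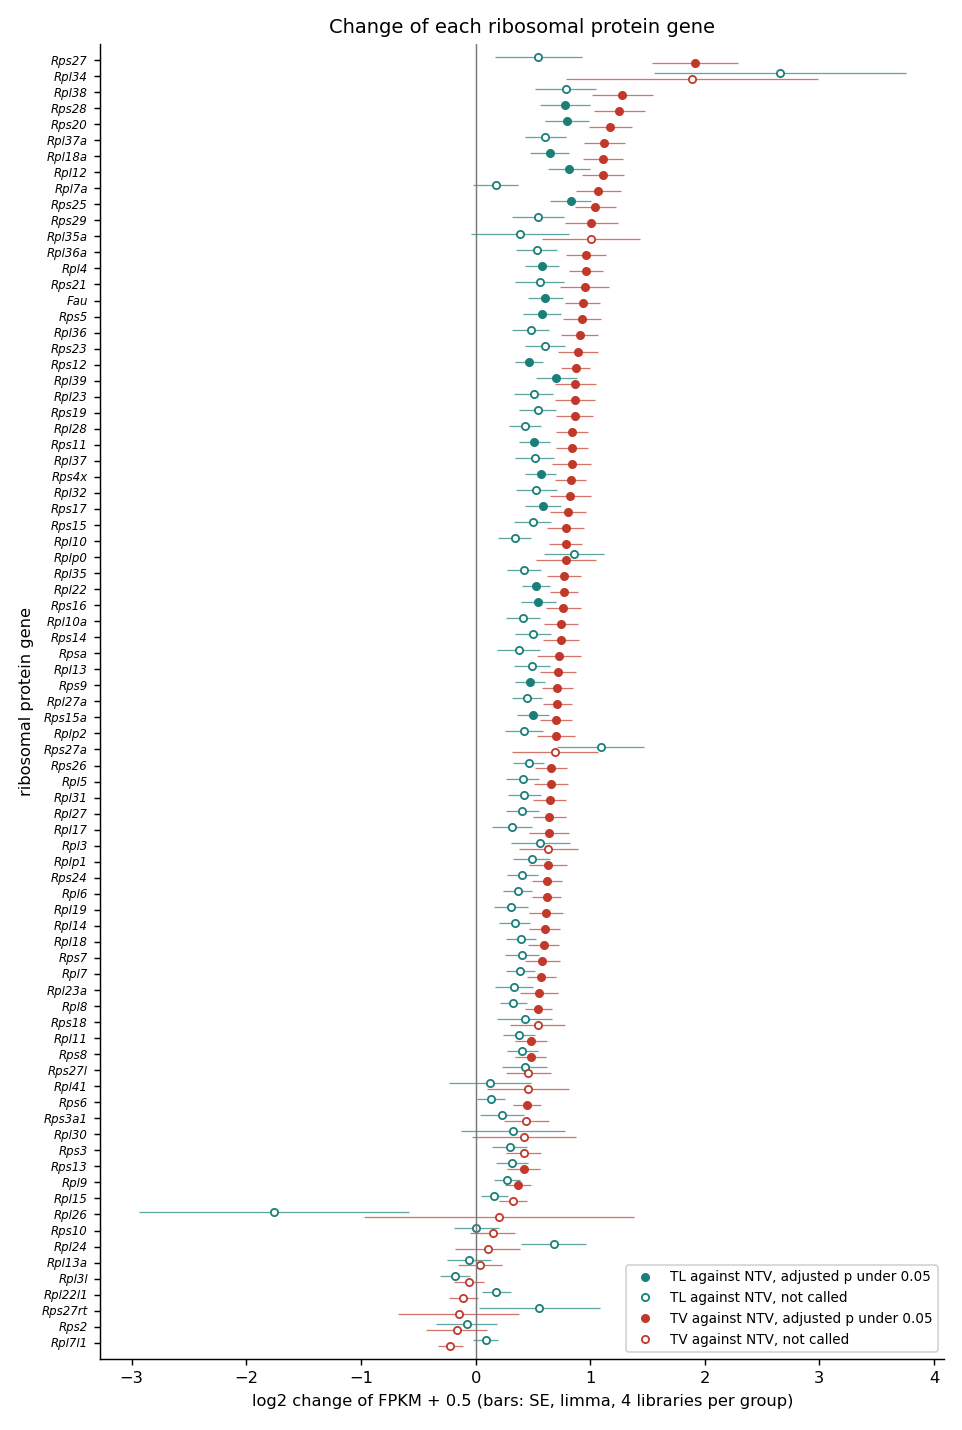
Log2 change of FPKM + 0.5 with its SE for each of the 81 tested genes in TL against NTV (upper point of each pair) and TV against NTV (lower point), sorted by the change in TV against NTV. Filled points have an adjusted p under 0.05 (61 in TV against NTV and 17 in TL against NTV), and both comparisons use the same 4 NTV libraries.

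The comparison of TL with TV addressed the effect of selpercatinib in tumour-bearing mice. No ribosomal protein gene was called in either direction by limma, where 0.235% of all genes were called higher and 0.282% lower. At an unadjusted p under 0.05, 14 of the 81 were lower and 2 higher, as were 8.98% and 7.15% of all tested genes. The median change was -0.24, beside -0.0031 over all tested genes. Of the 81 changes 73 were negative, as were 6456 of the 12754 over all tested genes. The 81 genes share libraries and are not independent. The 4 TL values lay below the 4 TV values without overlap for 2 of the 81 genes, Rpl7a and Rps12, as they did for 4.05% of all tested genes. Rpl7a, a large subunit protein, had 33.1, 36.8, 22.8 and 24.8 FPKM in TL and 79.1, 44.0, 44.6 and 54.9 FPKM in TV (-0.90 ± 0.20, adjusted p = 0.0725). Rps12 had 31.0, 43.1, 33.5 and 39.7 FPKM in TL and 50.2, 44.6, 46.1 and 54.1 FPKM in TV (-0.41 ± 0.12, adjusted p = 0.156). Without TL 4, 2 of the 81 genes were called lower, as were 1.35% of all tested genes. Rpl24, which forms a bridge between the subunits, had 8.67, 11.4, 8.9 and 12 FPKM in TL and 9.88, 9.78, 3.54 and 5.46 FPKM in TV (0.58 ± 0.28, adjusted p = 0.342). Its groups overlapped, with TV 6 and TV 8 the lowest. Rpl35a had 1.44 to 1.87 FPKM in TL and 1.51 to 10.3 FPKM in TV, where TV 6 alone was over 1.89 FPKM (-0.62 ± 0.43, adjusted p = 0.514).

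The TL library medians spanned 0.19 to 0.72 and the TV library medians 0.49 to 0.85. TL 4 was the highest of the 4 for 63 of the 81 genes and lay above the lowest TV value for 75 of them. TL 7 did so for 57, TL 5 for 21 and TL 1 for 16.

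Set against NTV, TL muscle had 17 of the 81 genes called higher and 0 lower, where 4.19% of all genes were called higher and 4.62% lower. The median was 0.45, beside 0.022 over all tested genes. The TL values lay above the NTV values without overlap for 39 of the 81 genes, as they did for 10.8% of all tested genes. By subunit, 12 of 34 small and 5 of 47 large subunit genes were called. The largest called rise was that of Rps25, a small subunit protein used in initiation at internal ribosome entry sites, with 99.9, 174, 111 and 152 FPKM in TL and 79.3, 82.3, 58.2 and 76.4 FPKM in NTV (0.83 ± 0.18, adjusted p = 0.0171). TL 1 and TL 5 were the lower pair but still above all NTV values. Its call ended without TL 7 or NTV 5 (adjusted p up to 0.0521). Rpl12, at the base of the stalk, had 86.1 ± 24.6 FPKM in TL and 47.4 ± 5.59 FPKM in NTV (0.82 ± 0.18, adjusted p = 0.0208). Rps20 rose by 0.80 ± 0.19 and Rpl4 by 0.58 ± 0.15.

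The count of 17 rested on single libraries. It was 0 without TL 7 or without NTV 5, 1 without TL 4, 2 without NTV 2, 3 without NTV 6, 10 without NTV 3 or without TV 4, and 29 without TL 1, and none of the 17 was called in every fit with 1 library left out. The median over the 81 genes stayed between 0.36 and 0.54 in those fits.

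None of the paralogues Rpl3l, Rpl22l1, Rpl7l1 and Rps27l was called in any of the 3 comparisons by limma, while their partners Rpl22, Rpl7 and Rps27 rose in TV. Rpl3l had 293, 249, 304 and 247 FPKM in TL, 259.5, 291, 313 and 325 FPKM in TV and 314, 369, 263 and 298 FPKM in NTV. The 3 groups overlapped, and no difference was called (TV against NTV -0.06 ± 0.13, adjusted p = 0.767). Without TV 3 or NTV 3 this value was just above 0. Rpl3, its general counterpart, had 12.1, 23.4, 14.7 and 15.4 FPKM in TL, 26.2, 18.4, 9.58 and 17.0 FPKM in TV and 10.8, 9.39, 10.7 and 11.6 FPKM in NTV. TV 6 lay within the NTV range, and the change of Rpl3 in TV was not called (0.64 ± 0.26, adjusted p = 0.0902). It gained a call in 2 of the other settings, 1 of them the fit without TV 6 (0.89, adjusted p = 0.0116). The ratio of Rpl3l to Rpl3 was 24.2, 10.6, 20.7 and 16.0 in TL, 9.90, 15.8, 32.7 and 19.1 in TV and 29.0, 39.3, 24.6 and 25.6 in NTV. Every TL ratio lay below every NTV ratio, the nearest being TL 1 and NTV 5, and the TV ratios overlapped both groups. With the reads of pseudogenes nearly identical to Rpl3 added to it, the mean ratio was 10.1 in TL, 11.5 in TV and 16.4 in NTV. The highest TL ratio was then 12.4 and the lowest NTV ratio 12.6, and TV ran from 5.82 to 19.1.

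Rpl22 and its paralogue Rpl22l1, which Rpl22 is known to repress in mouse cells, had different values. Rpl22 had 44.0, 59.3, 45.7 and 56.7 FPKM in TL, 63.2, 60, 53 and 65.9 FPKM in TV and 35.5, 36.2, 30.6 and 39.0 FPKM in NTV, with no overlap of either tumour-bearing group with NTV (TV against NTV 0.77 ± 0.12, adjusted p = 0.00195). Rpl22l1 had 13.7 to 14.6 FPKM in TL, 9.42 to 13.4 FPKM in TV and 9.93 to 14.4 FPKM in NTV (TV against NTV -0.11 ± 0.13, adjusted p = 0.57). The ratio of Rpl22l1 to Rpl22 was 0.242 to 0.313 in TL, 0.157 to 0.213 in TV and 0.298 to 0.405 in NTV, and the TV values lay below all others. Rpl22l1 was the 1 gene of the 81 whose TL values all lay above its TV values, as they did for 3.36% of all tested genes (0.29 ± 0.13, not called, adjusted p = 0.294).

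The values of Rpl7l1 followed the same order. Its ratio to Rpl7 was 0.0480 to 0.0614 in TV and 0.0822 to 0.112 in NTV, without overlap, while TL ran from 0.0540 to 0.0912. Rpl7 rose in TV (188 ± 12.3 FPKM in TV and 127 ± 16.5 FPKM in NTV; 0.57 ± 0.13, adjusted p = 0.00835), and Rpl7l1 had 10.1 ± 0.976 FPKM in TV and 11.9 ± 0.778 FPKM in NTV (-0.22 ± 0.11, adjusted p = 0.153). Rps27l, a paralogue induced by p53 in human cells, had 103 ± 4.32 FPKM in TV and 75.8 ± 11.9 FPKM in NTV and was not called (0.46 ± 0.20, adjusted p = 0.103). Its TV values (98.6 to 109 FPKM) all lay above its NTV values (61.3 to 88.3 FPKM), as they did for 14.4% of all tested genes. Rps27l gained a call in 2 of the other settings, 1 of them the fit without TL 1. The difference in change between a gene and its paralogue was not tested.

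**Figure D4:**
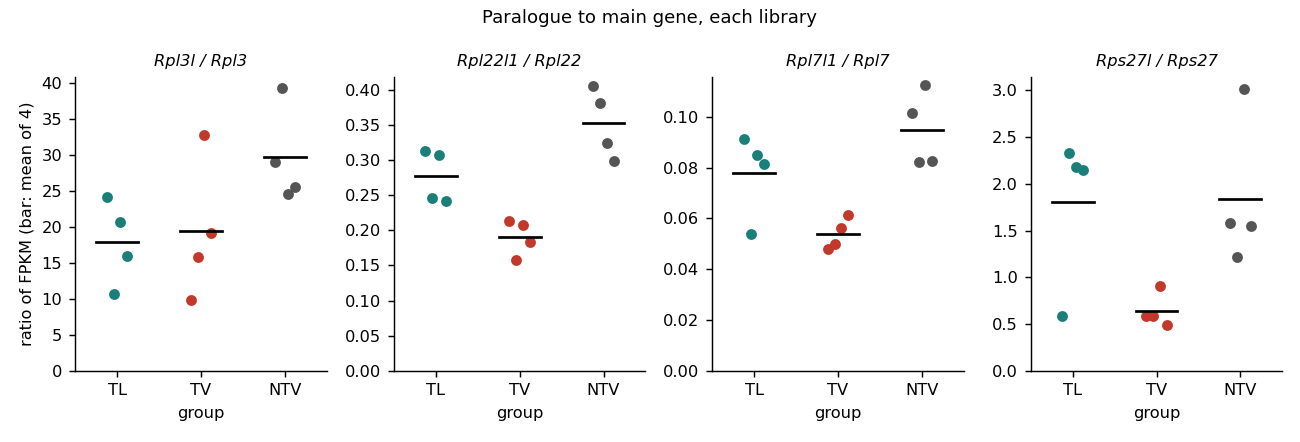
Ratio of FPKM of 4 paralogues to their partners in each library (points) with group means (bars), on linear axes from 0. The TV points of Rpl22l1/Rpl22 lie at 0.213 or below and the NTV points at 0.298 or above. Rps27 in the last panel shares reads with Rps27rt.

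Many ribosomal protein genes have processed pseudogenes almost identical to their mRNA, and reads from such loci cannot always be assigned to one of them. A comparison of GENCODE M21 transcripts found 574 loci at least 95% identical to 1 of the genes over at least 80% of the locus, of which 167 had a mean of at least 0.5 FPKM. Such a locus existed for 80 of the 86 genes, with 58 for Rpl21 alone. Rps27rt, which shares its sequence with Rps27, was searched only as a copy of Rps27. It therefore counts here and below as a gene without a copy. For 9 genes more than 50% of the summed reads lay at the copies, up to 99.0% for Rpl29, 97.2% for Rps10, 96.7% for Rps2 and 95.5% for Rpl21. Of the 20 tested genes not called in TV against NTV, 15 had a copy at 0.5 FPKM or more, and so did 51 of the 61 called genes.

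The following stretches show how little separates a gene from its main copy. Each pair gives 51 bases of the coding sequence from GENCODE M21 and the aligned bases of the copy, 5′ to 3′, with a differing base in capitals.
Rpl26: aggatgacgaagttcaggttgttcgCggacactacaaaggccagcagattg
Gm15772: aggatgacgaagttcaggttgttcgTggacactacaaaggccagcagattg
Rpl34: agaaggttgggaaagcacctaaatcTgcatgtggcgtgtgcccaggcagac
Rpl34-ps1: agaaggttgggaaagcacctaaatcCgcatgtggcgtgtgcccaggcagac
Rplp0: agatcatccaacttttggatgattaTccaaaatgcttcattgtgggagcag
Gm8730: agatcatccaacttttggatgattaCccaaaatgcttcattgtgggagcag

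Counted from the A of the start codon, these differences are C177T in Rpl26, T132C in Rpl34 and T72C in Rplp0. Gm15772 differs from Rpl26 at 2 of 438 aligned bases, Rpl34-ps1 from Rpl34 at 2 of 354 and Gm8730 from Rplp0 at 12 of 954. Rps27 and Rps27rt, a protein-coding gene counted among the 86, are identical over the 341 bases that align. In the table's coordinates (mm10), Rpl26 lies at chr11:68901583-68906989 and Gm15772 at chr5:3236431-3236868. Rpl34 lies at chr3:130726831-130730398 and Rpl34-ps1 at chr6:71124610-71124963.

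Reads at such pairs were split unevenly between libraries. Rpl26, a large subunit protein next to the exit tunnel, had 145, 88.3, 158 and 0.955 FPKM in TL, 197, 171, 85.2 and 240.0 FPKM in TV and 143, 159.7, 116 and 146 FPKM in NTV. Its copy Gm15772 had 313 FPKM in TL 4, 610.4 FPKM in TL 7 and 307 FPKM in TV 6, the libraries where Rpl26 was low, and between 15 and 32.7 FPKM in the other 9. Summed over Rpl26 and all its copies, size-factor-scaled reads numbered 3920.1, 4771, 4277 and 4838 in TL, 5325, 4625, 4648 and 6526 in TV and 3866, 4309.8, 3140.1 and 3938 in NTV. TL 7 then lay beside TL 4, and the change in TV against NTV was 0.46 ± 0.14 (adjusted p = 0.0306), in place of 0.21 ± 1.18 (adjusted p = 0.919) for Rpl26 alone.

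Rpl34 and Rpl34-ps1 were split in a like way. Rpl34 had 21, 35.2, 50.5 and 33.1 FPKM in TL, 1.88, 66.9, 25.2 and 37.8 FPKM in TV and 1.06, 22.7, 16.7 and 0.845 FPKM in NTV. Rpl34-ps1 had 570.3, 341 and 325 FPKM in TV 3, NTV 2 and NTV 6, where Rpl34 was lowest, and 15.3 and 18 FPKM in TL 5 and TV 4, where Rpl34 was highest. The summed reads rose in TV by 0.74 ± 0.15 (adjusted p = 0.0062), in place of an uncalled 1.89 ± 1.10 for Rpl34 alone. In TL against TV, Rpl34 alone had a change of 0.76 and the sum one of -0.32, neither called.

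Rps27 alone had 114, 59.3, 44.1 and 55.2 FPKM in TL, 174, 178, 108 and 220.3 FPKM in TV and 45.3, 67.2, 20.3 and 57.0 FPKM in NTV. Rps27rt had 65.4, 482, 344 and 451 FPKM in TL, 143, 125, 135 and 287 FPKM in TV and 204, 179, 175 and 163 FPKM in NTV. The sum of Rps27 and its copies, Rps27rt included, rose in TV by 1.02 ± 0.23 (adjusted p = 0.00903). Rplp0 was high in TL 4 and TL 7 (453 and 439 FPKM, against 189 and 200.5 FPKM in TL 1 and TL 5), where Gm8730 was lower (312 and 303 FPKM, against 370.4 and 377 FPKM). The sums were 12569, 19385, 13113 and 18792 scaled reads in TL, 17397 to 19172 in TV and 9309 to 12278 in NTV, so TL 1 and TL 5 lay near NTV and TL 4 and TL 7 near TV. The call of Rplp0 in TV against NTV (0.79 ± 0.26, adjusted p = 0.0465) ended without any 1 of the TV or NTV libraries (adjusted p up to 0.102), and for the sum the adjusted p was 0.00568. Rps27a, which encodes ubiquitin fused to a small subunit protein, stayed uneven after summing: it had 21.3, 69.9, 23.5 and 73.8 FPKM in TL, and the sums were 1082, 2852, 1184 and 2921 scaled reads.

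**Figure D5:**
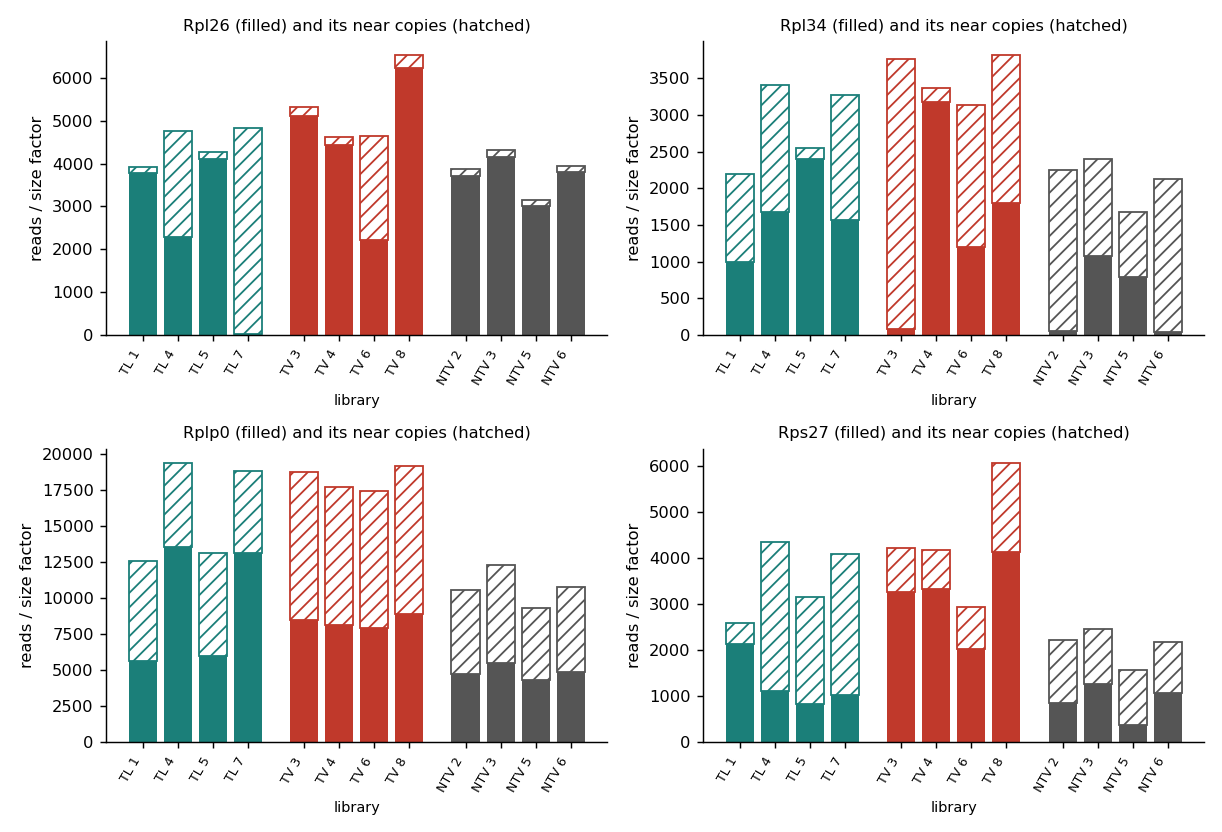
Reads divided by the library's size factor at Rpl26, Rpl34, Rplp0 and Rps27 (filled) and at their near copies (hatched, stacked), 1 bar per library. The filled part of Rpl26 nearly vanishes in TL 7 (24.8 scaled reads) while the whole bar, at 4838, stays within the range of the other libraries.

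With the reads of near copies added to every gene, 83 genes could be tested and 68 were called higher in TV against NTV, with 0 lower and a median of 0.70. Of the 61 genes called before, 60 were called again. Newly called were Rpl26, Rpl34, Rpl30, Rpl35a, Rps10 and Rps3a1, and also Rpl21 and Rpl29, which had been under the filter, while Rps13 lost its call. In TL against NTV the count was 21, with 15 of the 17 called again, and in TL against TV it was 0. The 15 tested genes counted as having no copy at 0.5 FPKM or more had a median of 0.77 in TV against NTV, and 10 of them were called higher. The 15 include Rps27rt, which shares its sequence with Rps27 and was not called. Among the genes that remained without a call in TV against NTV after summing were Rpl3, Rpl3l, Rpl22l1, Rpl7l1, Rps2 and Rpl13a. Rps2 with its copies, which include Rps2-ps13 at 202 to 331 FPKM in TL, 202 to 403 FPKM in TV and 177 to 328 FPKM in NTV, changed by 0.13 ± 0.12, where Rps2 alone had -0.17 ± 0.27.

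Other genes of translation gave a mixed picture. Of 20 mRNAs outside the ribosome that are also known to carry the TOP motif, 14 rose and 0 fell in TV against NTV (median 0.41). Of all genes, 13.8% were called higher and 11.5% lower in that comparison. Eif3f, a subunit of an initiation factor, had 92.4 ± 7.46 FPKM in TV and 50.3 ± 8.38 FPKM in NTV (0.88 ± 0.14). Eef2, the translocation factor, had 468 ± 59.9 FPKM in TL, 807 ± 42.8 FPKM in TV and 469 ± 61.0 FPKM in NTV. It rose in TV against NTV (0.79 ± 0.13, adjusted p = 0.00217) and was the 1 gene of this list called lower in TL against TV (-0.79 ± 0.13, adjusted p = 0.0222). Of all genes, 0.282% were called lower in TL against TV. Pabpc1, the poly(A)-binding protein, had 13.2 ± 1.94 FPKM in TV and 13.2 ± 1.74 FPKM in NTV. None of the 20 was called in TL against NTV, where 4.19% of all genes were called higher and 4.62% lower.

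Of 34 ribosome biogenesis genes, 9 rose in TV against NTV (13.8% of all genes) and 0 fell (11.5%), with a median of 0.19. Among them were Ncl, which encodes nucleolin (22.6 ± 2.46 FPKM in TV and 14.8 ± 1.0 FPKM in NTV; 0.59 ± 0.10), and Ubtf, which activates RNA polymerase I (0.33 ± 0.09). Fbl, the fibrillarin methyltransferase, had 3.55 ± 0.888 FPKM in TV and 3.75 ± 0.336 FPKM in NTV and was not called. Of 6 tested genes for chaperones dedicated to single ribosomal proteins, none was called.

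Of 17 genes of mTORC1 signalling and TOP mRNA control, 8 rose in TV against NTV (13.8% of all genes) and 0 fell (11.5%). Their median was 0.24. The list joins activators and inhibitors. The called inhibitors were Ddit4 (3.22 ± 0.95, adjusted p = 0.0287, limma), Sesn1 (1.45 ± 0.26), Tsc1 (0.78 ± 0.15), Eif4ebp2 (0.67 ± 0.16) and Eif4ebp1, which blocks cap-dependent initiation (2.64 ± 0.35). Also called were Rheb (0.24 ± 0.08), Mtor, the kinase itself (0.51 ± 0.16), and Myc, an activator of ribosomal genes (1.48 ± 0.46, adjusted p = 0.0349). Larp1 had 22.2 ± 1.68 FPKM in TV and 18.8 ± 0.93 FPKM in NTV and was not called. In TL against TV, 1 gene of this list, Sesn2, was called higher, as were 0.235% of all genes.

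The proteins of the mitochondrial ribosome, which translates the mRNAs of the mitochondrial genome, are encoded by other genes. Of 77 tested mitochondrial ribosomal protein genes, 34 fell in TV against NTV (11.5% of all genes) and 1, Mrpl23, rose (13.8%). Their median was -0.28. Mrpl34 had 38.6 ± 4.28 FPKM in TV and 77.1 ± 9.01 FPKM in NTV (-0.99 ± 0.12). In TL against NTV 10 of the 77 fell (4.62% of all genes), and in TL against TV none was called.

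All 7 skeletal muscle markers were present, at a summed 36962 to 43982 FPKM in TL, 36000 to 72384 FPKM in TV and 41184 to 52651 FPKM in NTV. Of the 7, 1, the fast-fibre actinin gene Actn3, rose in TV against NTV (4869 ± 821 FPKM in TV and 1981 ± 248 FPKM in NTV; 1.29 ± 0.19, adjusted p = 0.00159). In that comparison 13.8% of all genes were called higher. Of 10 markers of fibro-adipogenic progenitors and tenocytes, 6 fell in TV against NTV and 5 in TL against NTV, and their sum was 72.4 to 124 FPKM in TL, 93.3 to 144 FPKM in TV and 172 to 245 FPKM in NTV. Over all genes, 11.5% and 4.62% were called lower in these 2 comparisons. The sum of 8 endothelial markers was 45.7 to 66.8 FPKM in TL, 55.3 to 70.4 FPKM in TV and 71.3 to 100.7 FPKM in NTV, and 2 of them fell in TV against NTV. No macrophage marker was called, and their sum overlapped between groups (21.7 to 40.3 FPKM in TL, 24.5 to 57.1 FPKM in TV and 22.1 to 56.4 FPKM in NTV). Sums of satellite cell markers were 9.46 to 21.8 FPKM in TL, 17.5 to 22.0 FPKM in TV and 9.81 to 13.0 FPKM in NTV. Of 4 tested, 1, Cdh15, rose in TV against NTV (13.8% of all genes), and the median change of the 4 was 0.02. The adipocyte sum was 61.8 to 790.5 FPKM in TL, 116 to 625 FPKM in TV and 46.3 to 239 FPKM in NTV, with no marker called. Erythroid and neutrophil markers gave no call. No marker list had a defining gene at 0 in every library, except that Ly6g was at 0 in all TL and TV libraries. The part of these cell types in the ribosomal protein levels was not tested.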

How the data were processed

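RNA of 12 muscles (4 per group) was sequenced by the authors from poly(A)-selected RNA with random hexamer priming, per the labels' protocols. Tools given in the submitters' processing notes are featureCounts 1.5.0-p3, HISAT2 2.05 and DESeq2, with build mm10. The authors deposited FPKM per gene; whether counting used strand and how reads with several matches were treated is not given in the sources used here. Reads were recovered as whole steps of FPKM multiplied by length (100% of values within 0.1 read). Changes were fitted with limma 3.58.1 (R 4.3.3) on log2(FPKM + 0.5) over the whole table, with a trend, 1 mean per group and all 12 libraries. The fit was tested on artificial data with known answers. Near copies were found with BLAST 2.17.0; promoters are RefSeq, GRCm38.p6. Figures used Python 3.11.15 and matplotlib 3.10.9.

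The genes and lists were chosen with earlier results of these data known. Genes named with values were drawn from the 4 largest rises and falls per comparison, the 4 most abundant, paralogue pairs, stalk and ubiquitin-fusion genes, Rps6, Rpsa, and a selection from each list; Rps12, Rps20 and Rpl12 were added after their values were seen. Other settings were other pseudocounts, filters, scalings, limma options, a replicate block, voom on recovered reads and each library left out; near-copy sums were added after the data were seen. The labels call the libraries biological replicates.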

Additional observations from a re-analysis of the deposited data

Results flagged for a closer look

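Within groups of 4, 6 of 102 sets of values had 1 library far from the other 3, by a gap past Dixon's 95% critical value; chance alone flags about 1 in 20. Rpl35a had 10.3 FPKM in TV 6. Rps2 had 5.86 FPKM in TL 1. Rps27rt had 287 FPKM in TV 8. Rps6 had 204 FPKM in TL 4. Fau had 109 FPKM in NTV 5. Rpl7l1 had 10.7 FPKM in NTV 6. Of these genes, Rpl35a, Rps2, Rps6 and Fau had near copies at a mean of at least 0.5 FPKM, and Rpl7l1 had none. Rps27rt shares its sequence with Rps27. Such copies were common, as 69 ribosomal protein genes had one and 17, with Rps27rt counted among them, did not. Whether shared reads set the flagged values apart was not tested.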

How the results depend on the processing

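Of 43 gene changes recomputed under each setting (1202 values), 1131 kept direction and side of the threshold, 40 lost a call, 15 gained one and 16 turned direction, none of the last called. In TV against NTV the count of called genes was 61, and between 46 and 62 under other pseudocounts, filters, scalings and limma options and voom, and 53 to 62 with 1 library left out (medians 0.64 to 0.79). In a fit with the replicate block it was 0 (median 0.50), as was the count over the whole table. Several replicate numbers occur in only 1 group, so that fit keeps little information on the spread, and its count of 0 decides nothing. Same-numbered libraries correlated weakly (TV 3 and NTV 3 at r = 0.01, TV 6 and NTV 6 at 0.13, TL 4 and TV 4 at 0.08, TL 5 and NTV 5 at 0.09). Other pairs ran from -0.23 to 0.24, so these values gave no sign of pairing but cannot exclude it. Restricted to genes with at most 1 named pseudogene, the count called in TV against NTV was 29 of 39. Restricted to genes counted as having no expressed near copy, a set that still held Rps27rt, it was 10 of 15. In TL against TV the count was 0, but 1 with library weights and 0 to 2 with 1 library left out (medians -0.35 to -0.18); the replicate block gave a median of 0.057. In TL against NTV the count of 17 became 0 with no filter or with the replicate block, 29 with quantile scaling, 0 to 29 with 1 library left out, and 10 and 3 in those restricted sets. Without mitochondrial reads the NTV share was 1.48%. With near copies of Rpl3 added, the Rpl3l to Rpl3 mean ratio was 10.1 in TL, 11.5 in TV and 16.4 in NTV. Uncalled changes that turned were Rpl3l in TV against NTV (-0.14 to 0.025 with 1 library left out, turning without TV 3 or NTV 3), Rps2 in TV against NTV (-0.36 to 0.047, turning without TV 3, and 0.13 with near copies) and in TL against NTV (-0.27 to 0.11, turning without TL 1 or NTV 3, 0.053 with equal totals and 0.062 with near copies), Rpl13a in TL against NTV (-0.17 to 0.052, turning without TL 4 or NTV 3, 0.056 with equal totals and 0.015 with library weights), Rpl34 in TL against TV (-0.26 to 1.35, turning without TV 3, -0.12 with the replicate block and -0.32 with near copies) and Rpl26 in TL against NTV (0.23 with near copies). With equal totals the median of all genes was 0.14 in TL against NTV, in place of 0.022 with the authors' scaling. The cause was not tested.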
